A study of Mus musculus with 8 samples.

Results

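Asxl1 and the genes of the Polycomb repressive deubiquitinase complex (PR-DUB) were followed at the transcript level in 32Dcl3 cells, a murine myeloid line. The members were Asxl1, Asxl2, Bap1, Ogt, Hcfc1, Foxk1, Foxk2, Mbd5, Mbd6 and Kdm1b, and every probe set whose platform annotation gives one of these symbols and no other was taken. This gave 28 of the 45037 probe sets on the array, for 9 of the 10 genes. Mbd5 has no probe set with a single symbol and is not analysed here. The annotated table covers 18193 genes.

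The cells had been transduced with the retroviral vector pMYs-IG (mock) or with pMYs-FLAG-ASXL1-MT-IG, which carries a FLAG-tagged mutant ASXL1 (ASXL1-MT). Each of the 2 cultures was measured on 4 Affymetrix arrays, 1 in interleukin-3 (IL-3) and 1 each after 2, 6 and 24 h of granulocyte colony-stimulating factor (G-CSF). Both cultures therefore carry a vector, and the labels name no change to the endogenous Asxl1. The labels do not say which ASXL1 mutation was used, from which species the cDNA came, or whether clones or bulk populations were grown. Whether any Asxl1 probe set reads the vector's transcript is not given in the sources used here, so each is described apart. No condition was repeated, and the labels do not say that the arrays come from separate cultures, so the p-values measure only the spread between these arrays, whose number limits the precision.

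A value is a log2 signal minus the median of its own probe set over the 8 arrays, so it shows a difference between arrays and not the level of a gene. The level was inferred from the rounding step of the stored numbers and is used only to sort probe sets. Of the members, 19 probe sets lay at an inferred log2 level of 8 or above, here called bright, and 9 between 4 and 8. The median standard deviation (SD) over the 8 arrays was 0.28 for the bright members and 0.35 for the others, against 0.26 and 0.78 for all probe sets at those levels. Of 12 myeloid progenitor markers 10 were bright, among them Ptprc (CD45), the granule enzymes Mpo and Elane and the receptors Csf3r and Il3ra. Bright probe sets were also found for 1 of 4 erythroid, 2 of 5 megakaryocyte, 1 of 5 lymphoid, 2 of 6 fibroblast and 2 of 6 macrophage markers, and 44.2% of all genes had one. The part of other cell types in the results was not tested, and in bulk RNA a change in the share of a cell type and a change in RNA per cell cannot be told apart.

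PR-DUB removes ubiquitin from histone H2A and so opposes Polycomb repressive complex 1 (PRC1), which places it. Its enzyme is the deubiquitinase BAP1, which works only with an ASXL protein bound to it. HCF-1 (Hcfc1), the sugar transferase OGT, the forkhead proteins FOXK1 and FOXK2, the methyl-CpG-binding-domain proteins MBD5 and MBD6 and the demethylase LSD2 (Kdm1b) are its known partners. ASXL1 is often mutated in myeloid neoplasms, and the mutations usually shorten the protein.

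Promoter windows of 250 bases ahead of the RefSeq start site (GRCm38.p6) were found for 9 of the 10 genes. The 3 printed here, which hold no annotated protein-coding gene, belong to Asxl1 and Asxl2, whose bright probe sets were higher at 24 h, and to Foxk2, whose bright probe sets were lower. They are written 5′ to 3′ on the gene's strand, and capitals mark a match to a searched motif. The Asxl1 window is chr2:153345580-153345829 on the plus strand and overlaps the annotated long noncoding RNA gene 2500004C02Rik. The Asxl2 window is chr12:3426607-3426856 on the plus strand and overlaps the noncoding 1110002L01Rik. The Foxk2 window is chr11:121259737-121259986 on the plus strand and overlaps no annotated gene.
Asxl1: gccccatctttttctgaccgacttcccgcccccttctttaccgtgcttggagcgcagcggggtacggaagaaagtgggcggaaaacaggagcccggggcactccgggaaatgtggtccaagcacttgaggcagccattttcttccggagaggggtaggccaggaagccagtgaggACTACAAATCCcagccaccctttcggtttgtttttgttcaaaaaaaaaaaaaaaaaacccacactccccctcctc
Asxl2: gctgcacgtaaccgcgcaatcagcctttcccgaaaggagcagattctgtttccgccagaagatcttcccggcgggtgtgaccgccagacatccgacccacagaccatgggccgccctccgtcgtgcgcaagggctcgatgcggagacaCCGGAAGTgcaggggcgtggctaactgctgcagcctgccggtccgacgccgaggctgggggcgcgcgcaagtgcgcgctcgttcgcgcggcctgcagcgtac
Foxk2: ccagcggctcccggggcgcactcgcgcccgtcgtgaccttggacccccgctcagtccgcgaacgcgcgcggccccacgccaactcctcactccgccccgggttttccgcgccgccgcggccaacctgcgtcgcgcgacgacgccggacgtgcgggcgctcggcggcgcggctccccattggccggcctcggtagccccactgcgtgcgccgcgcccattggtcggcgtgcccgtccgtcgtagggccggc
Both strands were searched for 6 motifs: STAT (TTCNNNGAA), NRF1, the motif shared by ZNF143 and THAP11, ETS (CCGGAAGT), the E-box (CACGTG) and CREB (TGACGTCA). The Asxl1 window holds the ZNF143 and THAP11 motif from 75 to 65 bases ahead of the start, letters found in 1.04% of 27025 promoters. THAP11 is a DNA-binding partner of HCF-1. The Asxl2 window holds the ETS motif (2.93% of promoters), and the Foxk2 window holds none of the 6. Among the windows not printed, that of Bap1 holds an E-box (6.05%) and the downstream one of Mbd6 a STAT motif (7.18%). The upstream window of Mbd5 holds both an E-box and a STAT motif. The Foxk2 window has 48 CpG dinucleotides and that of Asxl2 has 31, against 11 for Asxl1 and a median of 6 over all promoters. A match describes the letters only.

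Asxl1 was read by 3 probe sets, which did not give 1 picture of the mutant culture against mock. With 1434561_at (bright), mock gave -0.01 in IL-3, -0.20 at 2 h, 0.48 at 6 h and 0.86 at 24 h, and ASXL1-MT gave -0.29, -0.53, 0.01 and 0.59. The mutant culture was lower at each time point, by 0.27 to 0.47, while the ranges of the 2 cultures overlapped. With 1435077_at (bright), mock gave -0.16, -0.01, 0.02 and 0.27 and ASXL1-MT -0.25, -0.02, 0.01 and 0.19. These differences were 0.01 to 0.08 in size, all below 0. With 1458380_at (level 4 to 8), mock gave -1.02, -0.72, -0.54 and 0.09 and ASXL1-MT -0.02, 0.02, 0.29 and 0.25. Here the mutant culture was higher, by 0.99, 0.74 and 0.83 in IL-3 and at 2 and 6 h, and by 0.16 at 24 h.

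**Figure D1:**
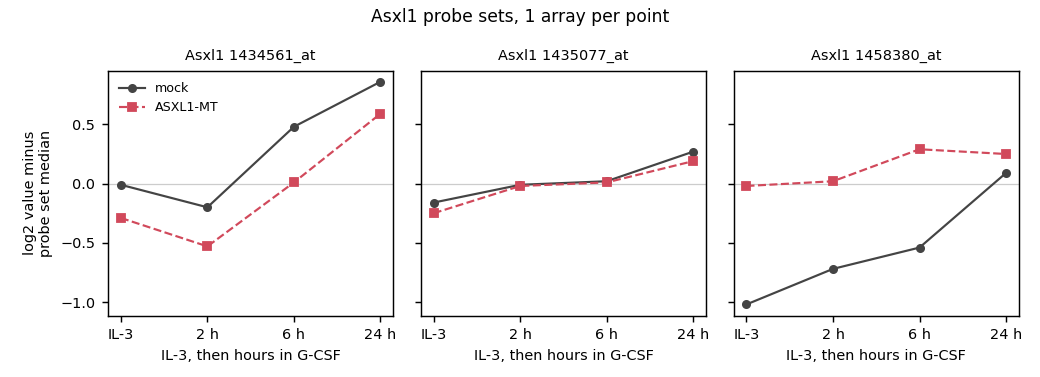
Deposited log2 value minus the probe set's median (y axis) for the 3 Asxl1 probe sets, by condition (x axis: IL-3, then hours in G-CSF, evenly spaced and not to scale). Each point is 1 array, mock in dark circles and ASXL1-MT in red squares. ASXL1-MT lies below mock throughout for 1434561_at, close to it for 1435077_at and above it for 1458380_at, where the difference narrows from 0.99 in IL-3 to 0.16 at 24 h.

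All values were fitted with limma on time point and vector over the whole table, with Benjamini-Hochberg adjustment at 0.05. The ASXL1-MT effect was -0.34 ± 0.10 (standard error, SE; n = 4 arrays per vector) for 1434561_at, at an adjusted limma p of 0.918, and -0.04 ± 0.09 for 1435077_at. It was 0.68 ± 0.18 for 1458380_at, also at an adjusted limma p of 0.918. Unadjusted limma p-values of 0.025 and 0.0189 for the first and last did not hold after adjustment. The effects of 1434561_at and 1458380_at differed by -1.02 (SD 0.41 over n = 4 time points), in the same direction at all 4. The exact two-sided sign-flip test gave p = 0.125, the smallest this design allows, for each of the 3 pairs of probe sets (adjusted 0.125). For 1458380_at the effect at 24 h minus that at the other times was -0.69 ± 0.26, at an adjusted limma p of 0.835. That term rests on 1 array per vector at 24 h, so the spread behind its error was measured only at the other 3 time points. Of 45037 probe sets 0 passed for ASXL1-MT against mock, and 5.34% had an unadjusted limma p under 0.05, as did 2 of the 28 members, both of Asxl1.

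In G-CSF, all 3 Asxl1 probe sets were higher at 24 h than in IL-3 in both cultures. For 1434561_at, which gave -0.01 and -0.29 in IL-3 and 0.86 and 0.59 at 24 h, the difference was 0.87 ± 0.14 (SE, n = 2 arrays per time point). Both 24 h arrays lay above the 6 others. The difference was 0.43 ± 0.13 for 1435077_at and 0.69 ± 0.25 for 1458380_at. For the latter it was 1.11 in mock and 0.28 in ASXL1-MT, and the fitted value was 1.04 without the ASXL1-MT array at 24 h and 0.35 without the mock array at 24 h. Over the whole table the adjusted limma p-values were 0.0682, 0.159 and 0.222, so none passed. The spread of dim probe sets enters that fit. The fit was then limited to the 13750 probe sets whose second-highest array value reached 10.25, the 70th percentile of the inferred level. Both bright Asxl1 probe sets passed in it, with adjusted limma p of 0.000797 for 1434561_at and 0.00471 for 1435077_at. For both, the 2 highest arrays were those at 24 h, so this filter is not independent of the 24 h comparison. In a fit of the bright probe sets alone, chosen by the inferred median level, the adjusted limma p-values were 0.00136 and 0.00604. With each array left out in turn, the difference ran from 0.82 to 0.92 for 1434561_at and from 0.41 to 0.46 for 1435077_at.

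Across the 28 member probe sets, 0 passed in the whole-table fit at any comparison. At 24 h the table had 477 calls, 1.06% of probe sets, of which 369 were higher and 108 lower. The smallest adjusted limma p of a member at 24 h was that of Asxl1 1434561_at. At an unadjusted limma p under 0.05 there were 14 members at 24 h, 9 higher and 5 lower, against 23% of the table. At 6 h there were 9, 6 higher and 3 lower, against 18.8%, and at 2 h 1, against 6.4%. Both 24 h arrays lay above both IL-3 arrays for 12 members (32.6% of all probe sets) and below them for 10 (21.8%). They were above all 6 other arrays for 7 members (12.8%) and below them for 5 (8.72%). These table shares include many dim probe sets, while 19 of the 28 members are bright, so they are not matched for level. In the fit of the bright probe sets alone, 15 of 19 members had an unadjusted limma p under 0.05 at 24 h, against 8574 of 14876 probe sets. The median difference of the members at 24 h was 0.10 and that of all probe sets 0.14. Scaling each array to its median moved the latter to 0.05 and quantile normalization to 0, so a change is best read against that shift.

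In the fit limited to the brighter probe sets, 13 of the 18 members in it passed at 24 h, 7 higher and 6 lower, against 53.1% of the 13750 probe sets. At 6 h 9 passed, 6 higher and 3 lower, against 41% of the probe sets. After median scaling 7 passed at 6 h, 4 higher and 3 lower (39.5% of probe sets), and after quantile normalization 6, 3 higher and 3 lower (40.2%). At 24 h the counts were 14 (7 higher, 7 lower; 52.9%) and 11 (5 higher, 6 lower; 48.6%). Over all probe sets the calls at 6 h were 3136 higher and 2504 lower as deposited, 2527 and 2900 after median scaling and 2343 and 3180 after quantile normalization. At 24 h they were 3734 and 3562, 3081 and 4193, and 2519 and 4157. With the 14876 bright probe sets alone, 14 of 19 members passed at 24 h (50.6% of probe sets) and 10 at 6 h (38.5%). When the probe sets of each gene were averaged first, 0 of the 9 member genes passed at 24 h and 4.73% of 18193 genes. Verbs of change are used from here on only for members that passed in this fit. Each ± of a member is the SE of the whole-table fit, also where an adjusted p of the brighter fit stands beside it. Leaving out either array of a time point outside a comparison gives the same fit, so the refits with an array left out are not all distinct. The count at 24 h was 7 without the IL-3 array of ASXL1-MT (36.1% of probe sets then passed) and 8 without the ASXL1-MT array at 24 h (41%). The count at 6 h was 2 without the IL-3 array of ASXL1-MT (22.2%), 4 without the ASXL1-MT array at 6 h (24.2%) and 3 without the mock array at 6 h (25.1%), so the table's share fell as well. With every array left out in turn, 7 probe sets passed each time at 24 h, of Asxl1 (2), Ogt (2), Foxk2 (2) and Bap1 (1), and 2 of Foxk2 did so at 6 h.

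Bap1, the catalytic subunit, fell at 24 h in both cultures. With 1452039_a_at, mock gave 0.10, -0.03 and 0.06 up to 6 h and -0.51 at 24 h, and ASXL1-MT gave 0.11, -0.11, 0.03 and -0.53. Both 24 h arrays were the lowest of the 8, and the cultures differed by at most 0.08 at any time. The difference from IL-3 was -0.62 ± 0.13 in the whole-table fit (adjusted limma p 0.0934) and had an adjusted limma p of 0.00141 in the brighter fit. With 1426354_at, mock gave -0.04, 0.04, 0.26 and -0.28 and ASXL1-MT 0.05, -0.18, 0.20 and -0.33. The difference at 24 h was -0.31 ± 0.15, with an adjusted limma p of 0.0355 in the brighter fit. That call was not kept in every fit with an array left out, where the difference ran from -0.41 to -0.22. The 2 probe sets correlated at r = 0.83 over the 8 arrays.

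Asxl2, the paralog that can take the place of ASXL1 on BAP1, has 5 probe sets, 2 of them bright. With 1439063_at, mock gave -0.08, -0.14, 0.05 and 0.38 and ASXL1-MT -0.20, -0.05, 0.24 and 0.24. It rose at 24 h by 0.45 ± 0.16, with an adjusted limma p of 0.0167 in the brighter fit, which was 0.0593 after quantile normalization. The call was not kept in every fit with an array left out, where the difference ran from 0.36 to 0.54. With 1460597_at, mock gave -0.12, -0.74, 0.12 and 0.16 and ASXL1-MT -0.65, -0.10, 0.10 and 0.62. Both 24 h arrays were the highest of the 8, with a difference of 0.77 ± 0.34 (adjusted limma p 0.291 over the whole table). It did not pass in the brighter fit either (adjusted limma p 0.0597). The dim probe sets 1444754_at and 1453295_at gave differences at 24 h of 0.12 ± 0.26 and 0.00 ± 0.14. The dim 1458366_at ranged from -0.53 to 0.66 on 7 arrays and was -2.15 on the mock array at 6 h, which gave an ASXL1-MT difference of 2.80 at that time.

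Ogt, which adds N-acetylglucosamine to proteins and modifies HCF-1, has 5 probe sets, and its 4 bright ones rose together in G-CSF. With 1460631_at, mock gave -0.26, -0.15, 0.13 and 0.19 and ASXL1-MT -0.20, -0.13, 0.36 and 0.34. All 4 arrays at 6 and 24 h lay above all 4 earlier ones. The difference was 0.48 ± 0.14 at 6 h and 0.49 ± 0.14 at 24 h, with adjusted limma p of 0.0085 and 0.00515 in the brighter fit. With 1425516_at, mock gave -0.34, -0.36, 0.07 and 0.16 and ASXL1-MT -0.25, -0.07, 0.16 and 0.41, a difference of 0.58 ± 0.14 at 24 h. For 1425517_s_at and 1451738_at the 24 h differences were 0.53 ± 0.17 and 0.51 ± 0.16. The bright probe sets passed at 6 and 24 h alike and correlated with each other at r between 0.88 and 0.95. Only the 24 h calls of 1425516_at and 1460631_at were kept in every fit with an array left out. After quantile normalization 1425517_s_at no longer passed at either time (adjusted limma p 0.0878 at 6 h and 0.0601 at 24 h). The dim 1436780_at gave 0.88 ± 0.17 at 24 h and was outside this fit. Against mock, the mutant culture was higher at all 4 times with 1425516_at and 1460631_at, by 0.02 to 0.28.

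Hcfc1, the large chromatin adaptor through which BAP1 meets transcription factors, has 3 bright probe sets. With 1433736_at the 8 arrays ran from -0.23 to 0.13, with 1421972_s_at from -0.13 to 0.27 and with 1450439_at from -0.46 to 0.26. The probe set 1421972_s_at was highest on both 6 h arrays (0.25 and 0.27). It rose at 6 h by 0.29 ± 0.13, with an adjusted limma p of 0.343 over the whole table. In the brighter fit the SE was 0.07 and the adjusted limma p 0.0266. That call was lost with median scaling (0.0627) and with quantile normalization (0.0927). At 24 h the 3 probe sets gave -0.06 ± 0.13, -0.21 ± 0.14 and -0.33 ± 0.33, and none passed. Foxk1, a forkhead protein that guides BAP1 to DNA, had probe sets that did not run together, with r between -0.57 and 0.09. The bright 1434655_at lay between -0.37 and 0.26 and did not pass at any time. The dim 1421759_a_at spanned 3.10 log2 units over the 8 arrays, with 1.24 and 1.85 in IL-3 and -1.07 and -0.99 at 24 h in mock and ASXL1-MT. Its difference at 24 h was -2.57 ± 0.78 (adjusted limma p 0.166). The dim 1451752_at gave 0.85 ± 0.19 at 2 h, the smallest adjusted limma p of a member at that time (0.606).

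Foxk2, the second forkhead partner, fell by 6 h in both cultures on its 3 bright probe sets. With 1428353_at, mock gave 0.47, 0.29, -0.55 and -0.22 and ASXL1-MT 0.36, 0.22, -0.51 and -0.35. With 1428354_at, mock gave 0.32, 0.21, -0.51 and -0.44 and ASXL1-MT 0.41, 0.18, -0.34 and -0.18. With 1452753_at, mock gave 0.19, 0.18, -0.52 and -0.18 and ASXL1-MT 0.62, 0.24, -0.43 and -0.58. In each case the 4 arrays at 6 and 24 h lay below the 4 earlier ones. The differences at 6 h were -0.94 ± 0.14, -0.79 ± 0.15 and -0.88 ± 0.24, and at 24 h -0.70 ± 0.14, -0.68 ± 0.15 and -0.78 ± 0.24. In the brighter fit the adjusted limma p-values at 6 h were 0.00102, 0.00253 and 0.0153 and at 24 h 0.00137, 0.0025 and 0.0169. At both times the call of 1452753_at was not kept in every fit with an array left out. The dim 1440689_at and 1442933_at gave -0.22 ± 0.18 and -0.42 ± 0.22 at 6 h, below IL-3 in both cultures, and 0.12 ± 0.18 and 0.05 ± 0.22 at 24 h. Neither passed at either time.

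Mbd6, a methyl-CpG-binding-domain protein that joins the complex through ASXL proteins, has 1 probe set, 1418375_at. Mock gave -0.32, -0.24, 0.54 and 0.74 and ASXL1-MT -0.30, -0.69, 0.24 and 0.58, so the arrays at 6 and 24 h were above the earlier ones in both. The differences were 0.70 ± 0.18 at 6 h and 0.97 ± 0.18 at 24 h. It did not reach the 70th percentile of the level. In the fit limited to the median level (6.3) its adjusted limma p at 24 h was 0.0252, and 19.5% of 29311 probe sets passed (10.2% at 6 h). Kdm1b, the LSD2 demethylase of histone H3, fell slightly at 24 h with 1433649_at. Mock gave 0.07, -0.03, -0.11 and -0.23 and ASXL1-MT 0.18, 0.23, 0.03 and -0.15. The difference was -0.31 ± 0.14, with an adjusted limma p of 0.0221 in the brighter fit. That call was not kept in every fit with an array left out, where the difference ran from -0.36 to -0.26.

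**Figure D2:**
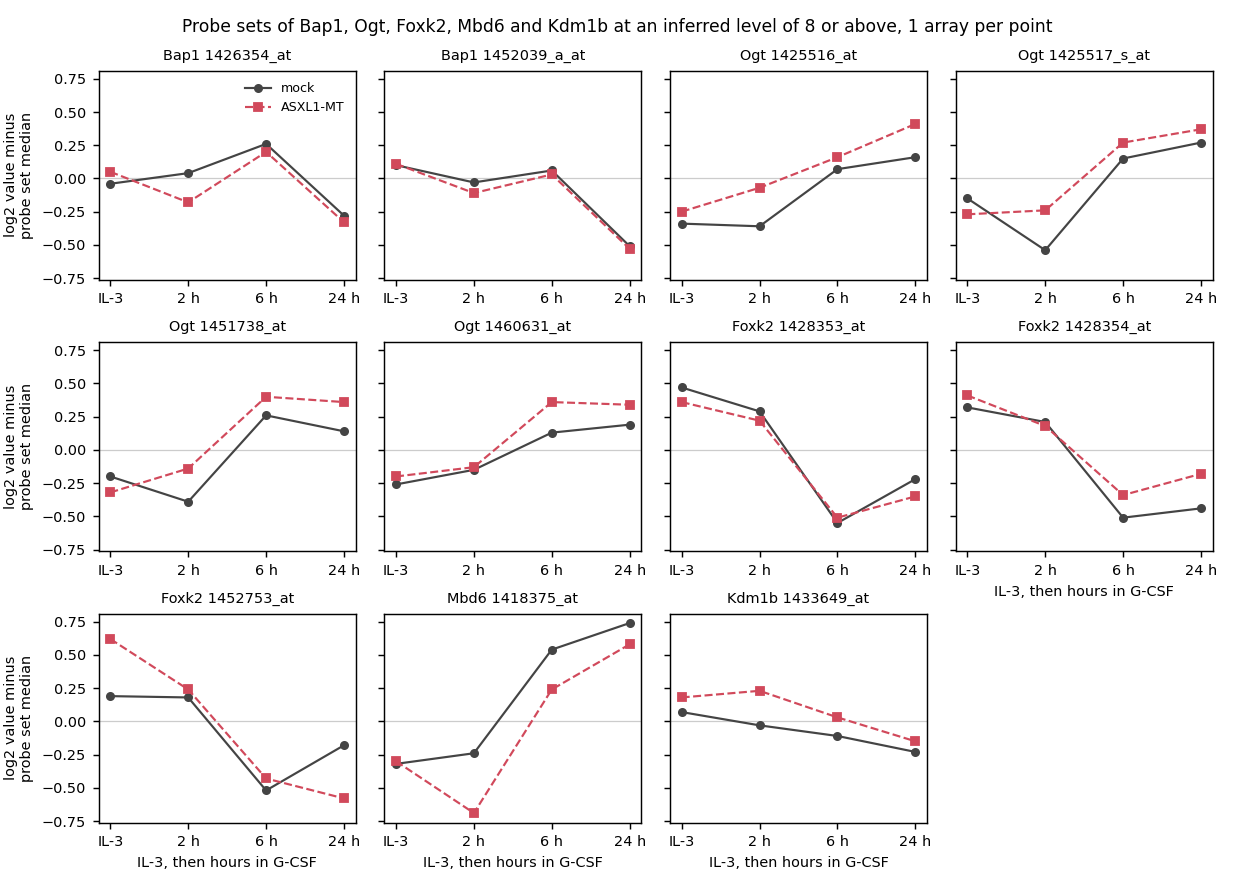
Deposited log2 value minus the probe set's median (y axis) for the bright probe sets of Bap1, Ogt, Foxk2, Mbd6 and Kdm1b, by condition (x axis: IL-3, then hours in G-CSF, evenly spaced and not to scale). Each point is 1 array, mock in dark circles and ASXL1-MT in red squares. The Ogt and Mbd6 panels run upward and the Foxk2 panels downward by 6 h, and both Bap1 panels are lowest at 24 h, in both cultures.

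**Figure D3:**
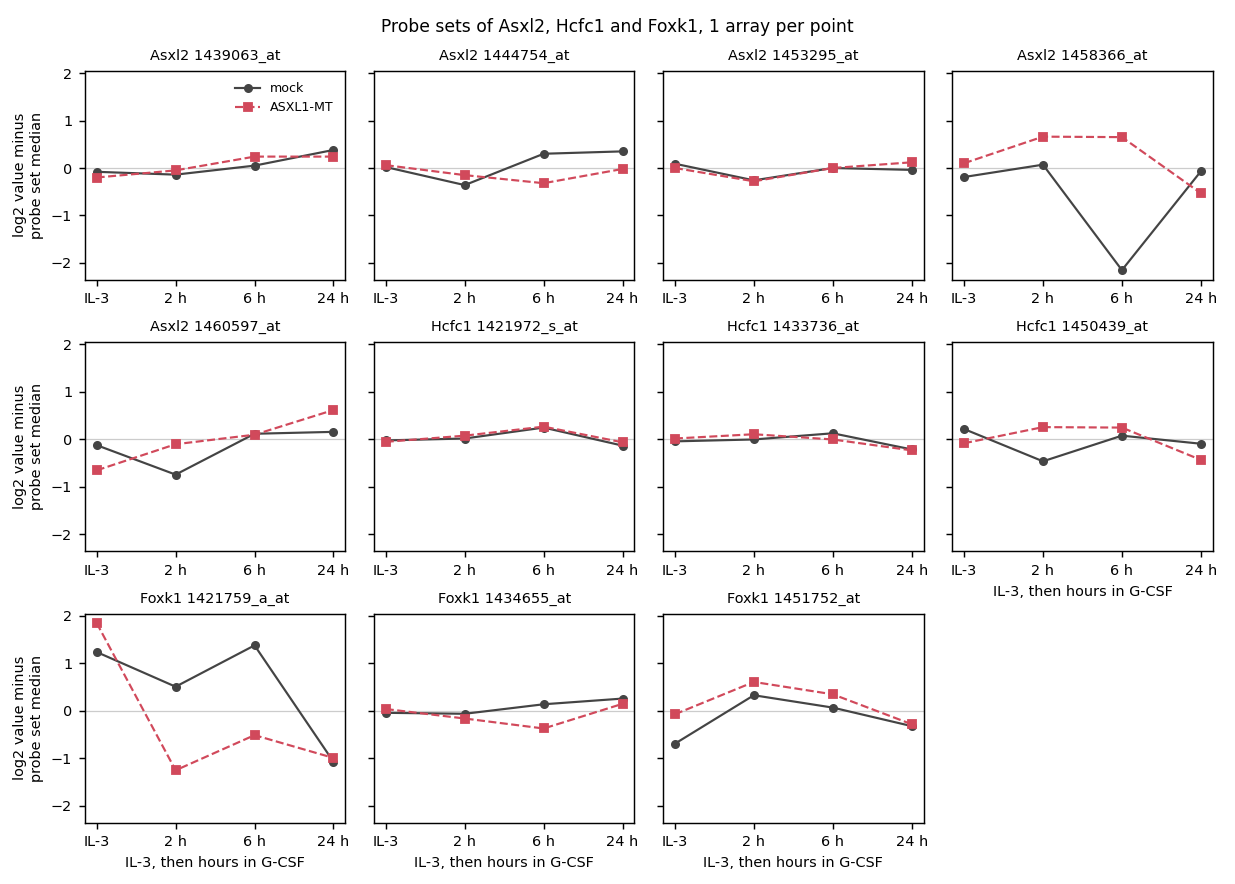
The same axes and symbols for all probe sets of Asxl2, Hcfc1 and Foxk1. The Hcfc1 panels stay within 0.72 log2 units, Asxl2 1458366_at has 1 array at -2.15 (mock at 6 h), and the 3 Foxk1 panels follow different courses.

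The mutant and mock cultures differed little in the bright members. The ASXL1-MT effect of the 19 bright probe sets ran from -0.34 (Asxl1 1434561_at) to 0.18 (Ogt 1425516_at). At single time points, where 2 arrays allow no test, a difference of 1 or more was seen 3 times in the members. These were Foxk1 1421759_a_at at 2 h (-1.76) and 6 h (-1.88) and Asxl2 1458366_at at 6 h (2.80), none of them bright. Of all probe sets 25.2% reached that size in IL-3, 26% at 2 h, 26.7% at 6 h and 25.9% at 24 h. These shares include many dim probe sets, whose median SD was 1.32 under level 4 and 0.78 from 4 to 8, against 0.26 for bright ones. The members are mostly bright, and a share at matched level was not computed. ASXL1-MT lay above mock at all 4 times for 5 members (7.75% of the table) and below for 2 (6.92%). Those above were Asxl1 1458380_at, Ogt 1425516_at, Ogt 1460631_at, Foxk1 1451752_at and Kdm1b 1433649_at, and those below were the 2 bright Asxl1 probe sets. In the test of whether the vectors differ by more or less at 24 h than before, 0 of 28 members and 0 of the table passed (limma), with 0 and 6.43% at an unadjusted p under 0.05. In the brighter fit 0.0145% of probe sets passed that test and again 0 members.

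**Figure D4:**
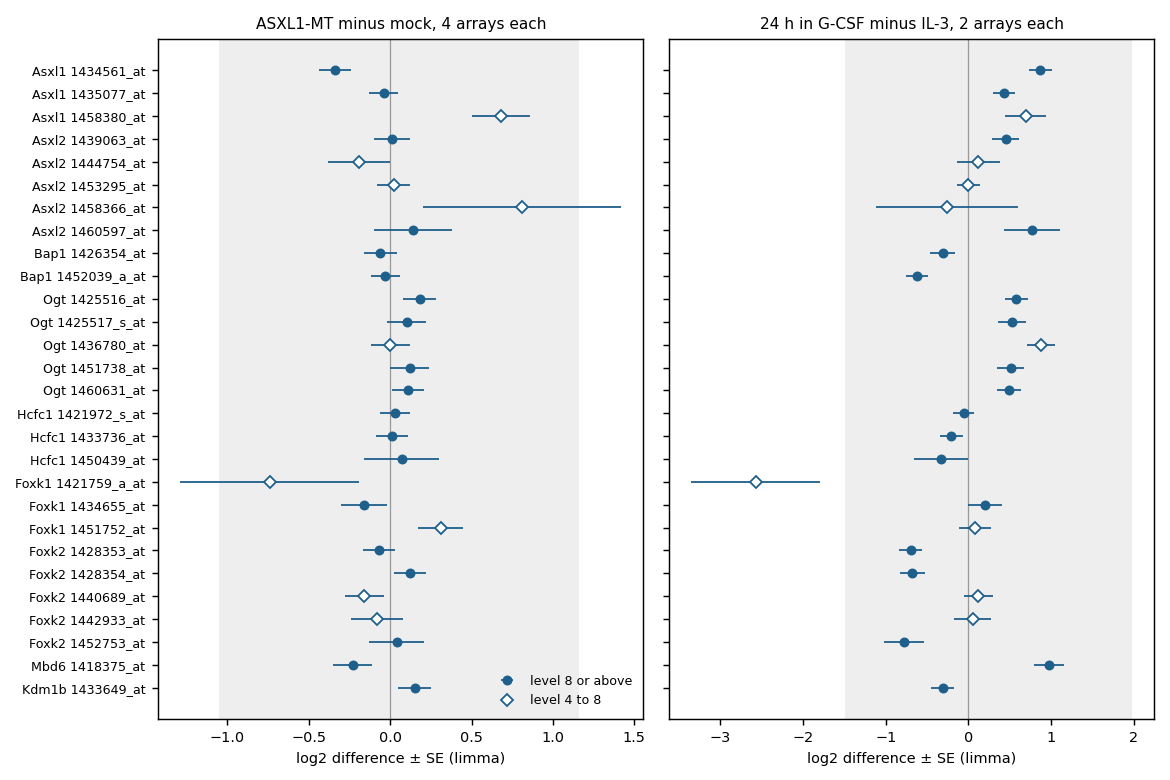
Log2 difference with its limma SE (x axis) for each of the 28 member probe sets (y axis), ASXL1-MT minus mock on the left (4 arrays each) and 24 h in G-CSF minus IL-3 on the right (2 arrays each). Filled circles are bright probe sets, open diamonds those at a level of 4 to 8, and the shaded band runs from percentile 5 to percentile 95 of all probe sets, -1.05 to 1.16 on the left and -1.49 to 1.98 on the right. The bright members sit close to 0 on the left. On the right, those of Asxl1, Asxl2, Ogt and Mbd6 are higher and those of Bap1, Foxk2 and Kdm1b lower. The bright probe sets of Hcfc1 (-0.06, -0.21 and -0.33) and of Foxk1 (0.20) are in neither group. Foxk1 1421759_a_at is the 1 member outside a band.

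Genes that work with or against the complex were counted by list, in the fit limited to the median level. Each gene was represented by its probe set of the highest inferred level. Counted in the same way over 13272 genes, 6.75% rose and 5.27% fell at 6 h, and 12.2% rose and 10% fell at 24 h. At 6 h this was 5.26% and 5.97% after median scaling and 4.7% and 6.56% after quantile normalization. At 24 h it was 10.2% and 12.1% after median scaling and 7.26% and 10.9% after quantile normalization. For ASXL1-MT against mock 0 genes of any list passed (limma; 0 of 29311 probe sets passed). At 24 h 4 of 20 PRC1 genes rose and 3 fell (3 and 4 after median scaling, 3 and 3 after quantile normalization). Phc1, a polyhomeotic subunit, rose by 1.05 ± 0.11 and Phc3 by 0.94 ± 0.13, while Bmi1, a RING finger partner of the ubiquitin ligase, fell by 0.82 on the log2 scale. Of 10 PRC2 genes 1 rose, the methyltransferase Ezh1 (1.36 ± 0.22). Of 14 other H2A and H2B deubiquitinase genes Usp49 rose (0.73 ± 0.13; not after quantile normalization) and Usp46 fell (-1.0 ± 0.19). The median difference in this fit was 0.17 for PRC1 genes, 0.14 for PRC2 genes and -0.06 for the deubiquitinases. Without the level filter it was 0.11 for 21 PRC1 genes, 0.16 for 11 PRC2 genes and -0.06 for the deubiquitinases, against 0.11 for all genes.

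Around OGT and HCF-1, 1 of 8 genes of the O-GlcNAc pathway rose at 24 h, N-acetylglucosamine kinase Nagk (1.14 ± 0.10), and 1 fell, Gfpt1 (-1.26 ± 0.12), the entry enzyme of the hexosamine pathway. Of 23 HCF-1 partners and SET1/MLL methyltransferase genes 4 rose, among them Kmt2e (1.10 ± 0.10) and Kmt2a (0.85 ± 0.13), and 4 fell, among them E2f4 (-0.72 ± 0.15) and the scaffold Wdr5 (-0.57 ± 0.09). After quantile normalization 2 rose and 4 fell. Of 12 LSD1 and LSD2 partners Gse1 rose (0.74 ± 0.10; not after quantile normalization), and Kdm1a (-0.57 ± 0.12), which encodes LSD1, and Hdac2 (-0.42 ± 0.09) fell. Of 8 other methyl-CpG-binding-domain family genes 2 rose, Baz2b (0.71 ± 0.11) and Mbd1 (0.60 ± 0.10), and Mbd3 fell (-1.06 ± 0.17). After quantile normalization 1 rose and 1 fell.

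FOXK1 and FOXK2 are known to repress autophagy genes and to promote glycolysis genes. Of 21 autophagy genes 10 rose and 0 fell at 6 h, and 8 rose and 1 fell at 24 h, beside the shares over all genes given above. After median scaling 4 rose at 6 h and 7 at 24 h, and after quantile normalization 5 rose at each time. The autophagy kinase Ulk1 rose by 1.55 ± 0.11 and the receptor Sqstm1 by 1.38 ± 0.11 at 6 h, and Wipi1 by 1.54 ± 0.15 and Map1lc3b by 1.24 ± 0.10 at 24 h. Wipi2 fell at 24 h (-0.88 ± 0.11). The median difference of the autophagy genes was 0.40 at 6 h and 0.49 at 24 h, against 0.11 at both times for all genes without the level filter. Of 10 glycolysis genes 4 rose at 24 h, among them Pfkl (0.96 ± 0.10) and Aldoa (0.73 ± 0.09), and at 6 h Hk2 fell (-1.10 ± 0.13). After median scaling 3 rose at 24 h and after quantile normalization 2. Of 7 HOXA genes and cofactors Pbx2 rose, by 0.80 ± 0.09 at 6 h and by 0.49 ± 0.09 at 24 h. After median scaling and after quantile normalization alike, 1 gene of this list rose at 6 h and 0 at 24 h.

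The genes whose courses most resembled Asxl1 1434561_at were Dusp1 (r = 0.991), Mkrn1 (0.984), Hcfc1r1 (0.983), Dnm2 (0.981) and Iqsec1 (0.980). They were taken from 7465 bright genes over the same 8 arrays, which share 4 time points and 2 cultures. Dusp1, a phosphatase of MAP kinases, gave -0.08, -0.13, 0.43 and 0.62 in mock and -0.25, -0.41, 0.08 and 0.49 in ASXL1-MT. Among the members, Mbd6 1418375_at was nearest to it (r = 0.95) and Kdm1b 1433649_at ran opposite (r = -0.94). The other bright Asxl1 probe set had r = 0.77 and the dim one r = 0.18.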

How the data were processed

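Total RNA of 8 samples was read on Affymetrix mouse arrays, 1 array per condition. Per the labels the scans were captured with MAS 5.0, and per the submitters' processing notes RMA was used, with no version. The deposited values are taken as log2 signals minus each probe set's median (largest absolute median 5e-07). No source used here gives the centring, the scaling between arrays or the log base. If the base were e, each log2 difference would be 1.44 times larger.

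Groups follow the labels. All 45037 probe sets were fitted with limma 3.58.1 (R 4.3.3; lmFit and eBayes, two-sided) on vector and time point (residual degrees of freedom 3, or 2 with the added 24 h indicator; prior 1.05), no filter and a Benjamini-Hochberg FDR of 0.05. For the vector the 4 time points served as replicates, and for a time point the 2 cultures. As the table is centred, levels for the filters were inferred from the rounding step of the 32-bit numbers, a step chosen with the data known. Scripts were tested on simulated data with 200 changed probe sets. The whole-table fit recovered 0% of 2-fold changes for ASXL1-MT against mock and for 24 h against IL-3. Of 4-fold changes it recovered 30% for ASXL1-MT against mock and 0% at 24 h. A count of 0 in that fit therefore does not show that nothing changed. In the simulation only the 200 chosen probe sets changed, while in the data 10370 had an unadjusted limma p under 0.05 at 24 h. The recovered shares are therefore not those of the real 24 h comparison. The alternatives tried were scaling, level filters, eBayes settings, gene means, fewer time points and each array left out. The brighter fit refers to the 70th percentile filter, which judges a probe set by its second-highest array. A probe set high at 1 time point can enter through the 2 arrays tested there. The refits of the brighter fit, and the list counts after rescaling, were chosen after seeing the data.

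All member probe sets are named, with at most 3 genes per list and direction (past the FDR). The 5 genes most like the Asxl1 probe set of the highest inferred level are named as well. Members and lists were chosen with earlier results of these data known.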

Additional observations from a re-analysis of the deposited data

Results flagged for a closer look

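Asxl2 1458366_at stood at -2.15 on the mock array at 6 h, far below the nearest of the other mock arrays (-0.19). The gap was 0.882 of the range of the 4 mock arrays, above Dixon's 95% critical value. In all 56 groups of 4 arrays were checked, 1 per vector and member probe set, and chance flags about 1 in 20. The probe set lay at an inferred level of 4 to 8, and the other 4 Asxl2 probe sets gave between 0.00 and 0.30 on the same array.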

How the results depend on the processing

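Members passed for G-CSF under filters and a trended prior, and 0 passed for ASXL1-MT against mock or its 24 h term under any alternative run (limma, adjusted p under 0.05). With the median level filter, the 70th percentile filter, the rounding-step filter (added after seeing the data) and eBayes with a trend, the table's calls were 3004, 5640, 5734 and 4662 at 6 h, with 2, 9, 10 and 8 members. At 24 h they were 5724, 7296, 7532 and 6913, with 9, 13, 14 and 12 members. At 2 h they were 38, 20 and 13 with the last 3 of these settings, and the 24 h term of ASXL1-MT gave 2 at the 70th percentile, with 0 members. The 477 calls at 24 h became 299 with arrays centred on their medians, 861 of 18193 gene means, and 0 with quantile normalization, with robust eBayes or with only the 4 arrays compared. The 24 h calls were lost whichever array was left out, including the 2 h and 6 h arrays, which lie outside that comparison. Each of these fits has fewer residual degrees of freedom, so the loss does not show that the calls rest on a given array. In the brighter fit, leaving out each array gave 2 to 9 members at 6 h and 7 to 13 at 24 h. Single member probe sets kept direction and side of the threshold in 1982 of 2168 refits, some of which are the same fit. In 77 they newly passed, and in 109 an uncalled value changed sign. The 24 h term could not be fitted without either 24 h array. The fit of ASXL1-MT against mock is paired by time point, and without that block 0 probe sets passed. The labels carry no replicate numbers, so no other pairing was run. The 8 arrays, 1 per condition, and the unknown background signal limit what can be seen, and dim probe sets vary most.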
